A study of Mus musculus with 7 samples.

Results

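The core genes of transforming growth factor beta (TGF-β) signalling were followed through early osteoblast induction of C3H10T1/2 cells. They were taken by name as 3 ligand genes (Tgfb1, Tgfb2, Tgfb3), 3 receptor genes (Tgfbr1, Tgfbr2, Tgfbr3) and 4 genes of latent TGF-β binding proteins (Ltbp1 to Ltbp4). All 10 were found by symbol among the 54532 features of the deposited count table, and all 10 passed the filter on low counts. C3H10T1/2 is an established mouse mesenchymal line that can form bone, fat, cartilage or muscle cells, so every library comes from 1 line. Untreated cells made up the control group of 3 libraries, whose time in culture the labels do not give. In the OB group, 4 libraries came from cells induced for 3 days by adding 10 mM β-glycerophosphate, 50 µM ascorbic acid and the synthetic glucocorticoid dexamethasone, whose concentration is left out because the labels write it ambiguously. Replicates are called biological in the design text, without saying which cultures they came from, so a p-value reflects the spread of these libraries alone. The labels name no deleted gene or transgene in either group, and all 7 descriptions carry the letters NC, whose meaning is not given.

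TGF-β ligands are made as precursors that stay folded inside their own propeptide. A latent TGF-β binding protein can be bound to this latent complex by disulphide bonds and tether it to fibrillin and fibronectin in the matrix, until integrins or proteases release the ligand. Free ligand binds the type II receptor, which recruits and phosphorylates the type I receptor, and the latter phosphorylates Smad2 and Smad3. The type III receptor, betaglycan, has no kinase and presents ligand, TGF-β2 above all, to the type II receptor. In bone the matrix stores latent TGF-β, which acts on the recruitment and early growth of osteoblast progenitors and holds back their late maturation.

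Total counts on genes were 21213328 to 46530017 per library. Levels are CPM, counts scaled to the size of the library, on which 3 counts equal 0.0639 to 0.139 CPM in a single library. Levels of different genes are compared only per exon length, as RPKM. The submitters' descriptions fall into label sets, starting with C1 (control 1 and OB 1), with C2 (control 2 and OB 2) or with no C number (control 3, OB 3 and OB 4). What these sets are is not stated. Control 3 stood apart from the other controls on the first principal component (-96.9 against -23.0 and -25.3), so values within label sets are given below for some genes. All 10 markers of mesenchymal stroma had a mean of at least 1 CPM and their summed level was 27700 to 34100 CPM in control and 20500 to 30000 CPM in OB. Of 7 osteoblast markers, 3 had a mean of at least 1 CPM and Sp7, Alpl, Bglap and Ibsp did not; their summed level was 468 to 688 CPM in control and 198 to 771 CPM in OB, with 0 of 7 called. Adipocyte markers summed to 46.0 to 74.1 CPM in control libraries, against 100 to 183 CPM over OB, and 2 of 6 were called higher. Summed macrophage, endothelial and epithelial markers did not exceed 9.43 CPM in any library, with Adgre1 and Epcam at 0 counts. The glucocorticoid targets Fkbp5, Tsc22d3, Zbtb16 and Per1 summed to 116 to 122 CPM in control and 1060 to 1390 CPM in OB. The cell cycle markers Mki67, Top2a, Ccnb1, Cdc20 and Cdk1 summed to 610 to 1820 CPM in control and 290 to 416 CPM in OB, and all 5 were called lower. The part of the adipocyte and cell cycle markers in the differences below was not tested.

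OB was compared with control by edgeR's quasi-likelihood test, with p-values adjusted over 15441 genes by the Benjamini-Hochberg method. In this test 1 of the 10 genes was higher in OB, Tgfbr3, and 0 were lower. Over all genes tested, 4.32% were called higher and 3.72% lower, so a count of 1 in 10 is near the background. At an unadjusted p under 0.05, 1 of the 10 was higher and 1, Ltbp1, was lower, against 12.8% and 12.4% of all genes. The calls of both DESeq2 and limma-voom were 1 higher and 0 lower, with backgrounds of 6.9% higher and 6.03% lower and of 8.08% and 7%. The median log2 fold change was -0.16 over the 10 genes and 0.00 over all genes (-0.004). The groups did not overlap for 1 of the 10, against 25.5% of all genes tested. With the replicate number as a block 2 of the 10 were higher (Tgfbr2 and Tgfbr3) and 0 lower, where 5.38% of all genes were called higher and 3.38% lower. With the label set as a block 2 were higher and 1, Ltbp1, was lower, against 9.28% and 8.13%.

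**Figure D1:**
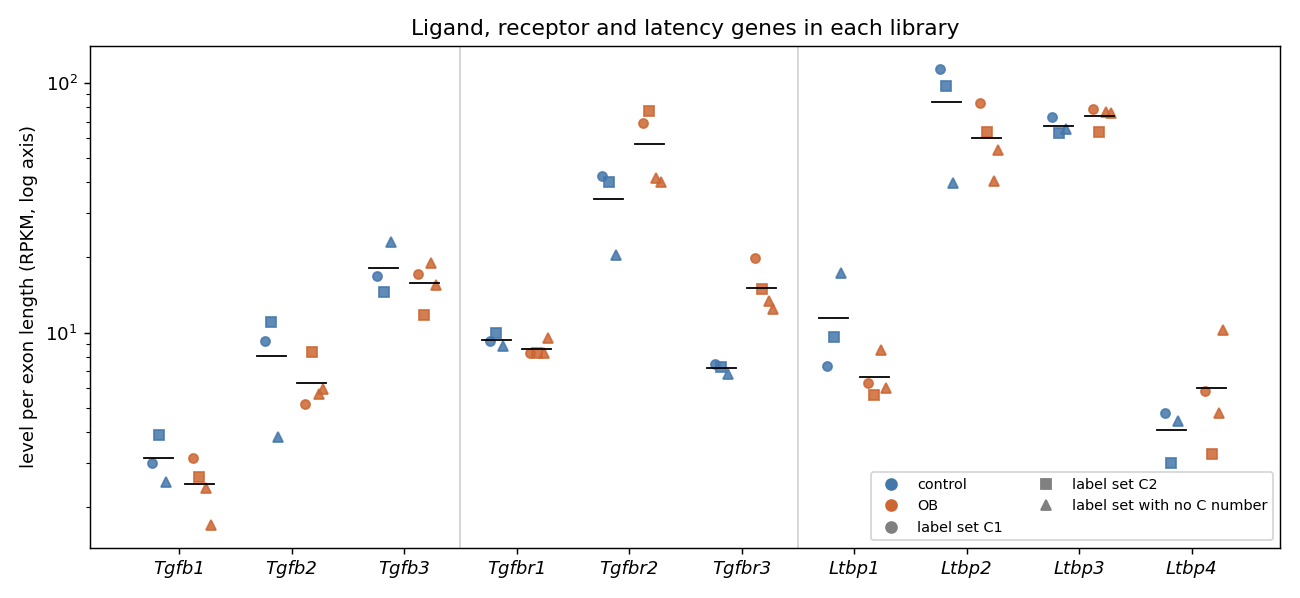
Level per exon length (RPKM, log axis) of the 10 genes in each library, with control in blue, OB in orange, marker shape for the label set and a bar at each group mean. Tgfbr3 is the gene whose groups do not overlap, and control 3 lies apart from the other controls for Tgfb2, Tgfbr2, Ltbp1 and Ltbp2.

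Among the receptors, Tgfbr3, which encodes the co-receptor betaglycan, stood at 49.0, 47.9 and 44.8 CPM in control 1, 2 and 3. It stood at 129.8, 97.8, 87.6 and 81.3 CPM in OB 1, 2, 3 and 4. The 3 controls lay close together, and every OB library was well above all of them. From a mean of 47.2 ± 2.17 CPM (SD, n = 3) Tgfbr3 rose to 99.1 ± 21.5 CPM (SD, n = 4), a log2 fold change of 1.07 ± 0.17 (SE) with edgeR adjusted p = 0.0131. In order of p it ranked 253 of 15441 genes. The difference within the C1 and C2 label sets was 1.40 and 1.03 in log2 CPM, and 0.91 among libraries with no C number. The call ended without control 2 (log2 fold change 1.07, edgeR adjusted p = 0.0534) and held without each of the other 6 libraries. Tgfbr3 (ENSMUSG00000029287) lies on chromosome 5 of mm10 at 107106570 to 107289629, on the minus strand, and counts were taken over its exons. Gm43422 shares 4.54% of its exon bases on the same strand, and fragments over both genes were not counted.

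Tgfbr2, the gene of the ligand-binding type II receptor kinase, was the most abundant receptor gene per exon length in every library. It was measured at 345.6, 327.5 and 166.8 CPM in control 1, 2 and 3, against 566.7, 629.4, 340.3 and 329.0 CPM in OB 1, 2, 3 and 4. OB 3 and OB 4 lay at the level of control 1 and 2, so the groups overlapped, while control 3 was lowest. Without a block its log2 fold change was 0.74 ± 0.33 (SE), with edgeR adjusted p = 0.209 and a 95% interval of -0.02 to 1.49, and it was 0.46 without control 3. Within label sets each OB library was above its own control, by 0.71 in set C1, 0.94 in set C2 and 1.00 among libraries with no C number, in log2 CPM. With the replicate number as a block it was 0.89 ± 0.12 (SE, edgeR adjusted p = 0.0135), and with the label set as a block 0.90 ± 0.10 (SE, edgeR adjusted p = 0.00322). DESeq2 with the label set as a block, an alternative chosen after seeing the data, gave 0.89 ± 0.12 (SE, adjusted p = 5.36e-12). The effect in libraries with no C number exceeded that in C1 and C2 by 0.18 (edgeR interaction term, adjusted p = 0.455). Tgfbr2 (ENSMUSG00000032440) lies on chromosome 9 of mm10 at 116084293 to 116175360, on the minus strand, and none of its exon bases overlap another gene.

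Tgfbr1, which encodes the type I receptor kinase that phosphorylates Smad2 and Smad3, varied least among the receptors over all libraries. The CPM values were 60.5, 65.0 and 57.8 for the controls, compared with 53.9, 54.2, 54.3 and 62.1 for OB 1, 2, 3 and 4. The ranges overlapped through OB 4 alone, which was above the lowest control. As a log2 fold change this was -0.12 ± 0.10 (SE, edgeR adjusted p = 0.470), with a 95% interval of -0.35 to 0.10. It did not pass under any alternative tried. Tgfbr1 (ENSMUSG00000007613) lies on chromosome 4 of mm10 at 47353222 to 47414931, on the plus strand. Its share of the summed receptor RPKM was 15.7%, 17.4% and 24.5% in the controls and 8.48%, 8.28%, 13.1% and 15.3% in the OB libraries. The shares did not overlap, with that of OB 4 close to that of control 1. The share of Tgfbr2 was 56.5% to 71.6% in control libraries and 64.7% to 76.8% in OB libraries. The receptor sum itself was 50.8 ± 12.8 RPKM (SD, n = 3) in control and 80.7 ± 20.8 RPKM (SD, n = 4) in OB.

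**Figure D2:**
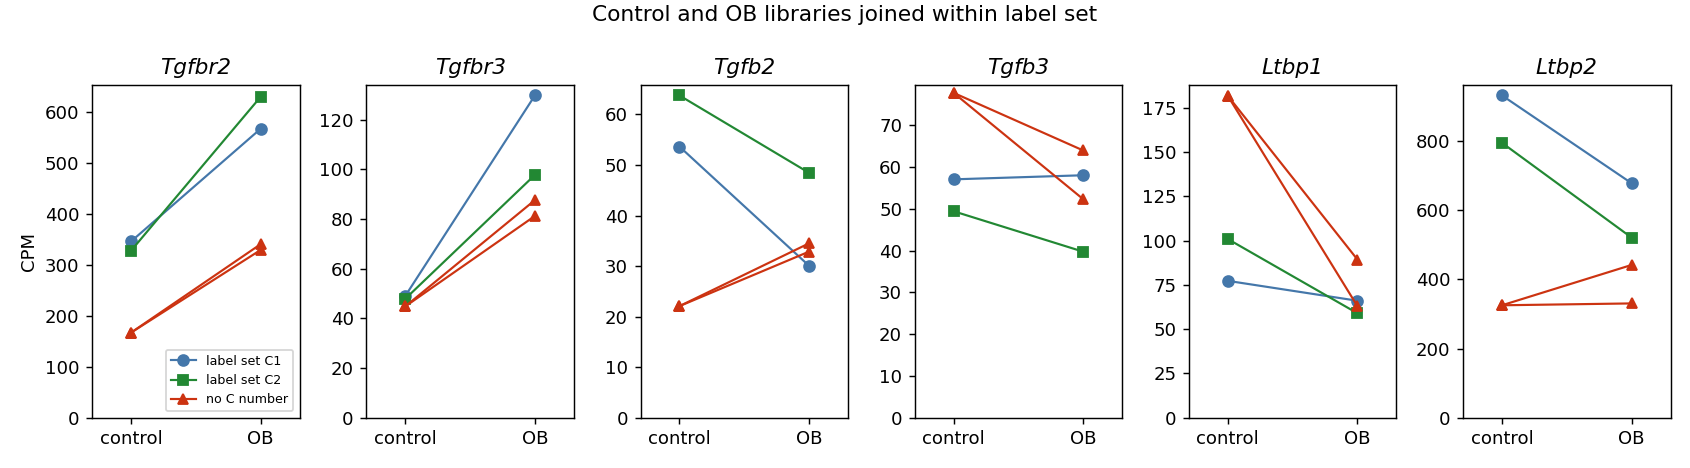
CPM of 6 genes in control and OB, with each OB library joined to the control of its own label set (control 3 serves OB 3 and OB 4), on linear axes from 0. Lines for Tgfbr2 and Tgfbr3 climb and those for Ltbp1 descend in every label set, while those for Tgfb2 and Ltbp2 descend in C1 and C2 and climb among libraries with no C number.

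For none of the 3 ligand genes did the difference pass the test. Tgfb1, whose product is the TGF-β stored in largest amount in bone matrix, had the lowest mean level of the 10 per exon length in both groups. Its level was 15.1, 19.6 and 12.7 CPM in control 1, 2 and 3 against 15.9, 13.3, 12.1 and 8.56 CPM in OB 1, 2, 3 and 4. The groups overlapped, and OB 4 was lowest. For Tgfb1 the log2 fold change was -0.34 ± 0.24 (SE, edgeR adjusted p = 0.406), with a 95% interval of -0.89 to 0.20. Leaving out 1 library gave -0.48 (control 3 or OB 1) to -0.17 (control 2). Tgfb1 (ENSMUSG00000002603) lies on chromosome 7 of mm10 at 25687002 to 25705077, on the plus strand.

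Tgfb2, which encodes the isoform with low affinity for the type II receptor alone and most in need of betaglycan, was uneven among the controls. It was measured at 53.7, 63.8 and 22.1 CPM in control 1, 2 and 3, against 30.1, 48.5, 32.9 and 34.5 CPM in OB 1, 2, 3 and 4. The OB libraries lay between control 3 and the other controls. Over all 7 libraries the log2 fold change of Tgfb2 was -0.35 ± 0.34 (SE, edgeR adjusted p = 0.559), with a 95% interval of -1.13 to 0.43. It was -0.69 without control 3 and -0.07 without control 2. The sign differed between label sets, at -0.84 in C1, -0.40 in C2 and 0.61 among libraries with no C number. The test of that difference gave 1.19 (edgeR interaction term, adjusted p = 0.0941). Libraries with no C number alone gave a log2 fold change of 0.60 ± 0.13 (SE, edgeR adjusted p = 0.00544), where the lone control is taken to vary as much as the OB libraries and 18.9% of all genes were called higher and 21.2% lower. Tgfb2 (ENSMUSG00000039239) lies on chromosome 1 at 186622792 to 186705989, on the minus strand.

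Tgfb3, the gene of the third isoform, was the most abundant ligand gene per exon length in all 7 libraries. The CPM values were 57.1, 49.4 and 77.8 for control 1, 2 and 3, compared with 58.0, 39.7, 64.0 and 52.3 for OB 1, 2, 3 and 4. The groups overlapped, with control 3 highest and OB 2 lowest. Its log2 fold change was -0.20 ± 0.20 (SE, edgeR adjusted p = 0.584), with a 95% interval of -0.67 to 0.27, and -0.35 without control 2, -0.08 without OB 2 and -0.001 without control 3. Tgfb3 (ENSMUSG00000021253) lies on chromosome 12 at 86056745 to 86079041, on the minus strand. Of its exon bases 12.4% are shared with genes such as Gm48008 on the opposite strand, and fragments over both genes were not counted.

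Per exon length the 3 ligand genes together stood at 29.1, 29.5 and 29.3 RPKM in control 1, 2 and 3. In OB 1, 2, 3 and 4 the sum was 25.5, 22.8, 27.0 and 23.1 RPKM. All 4 OB sums were below the controls, which lay close together although their makeup differed. Tgfb3 held 57.9%, 49.5% and 78.4% of the sum in the controls and 51.6% to 70.1% in OB. Tgfb2 held 31.8% and 37.3% in the first 2 controls, against 20.4% to 36.8% over OB, with its smallest share in control 3, and Tgfb1 7.35% to 13.2% over all libraries. These sums and shares are given as a description, with no test.

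**Figure D3:**
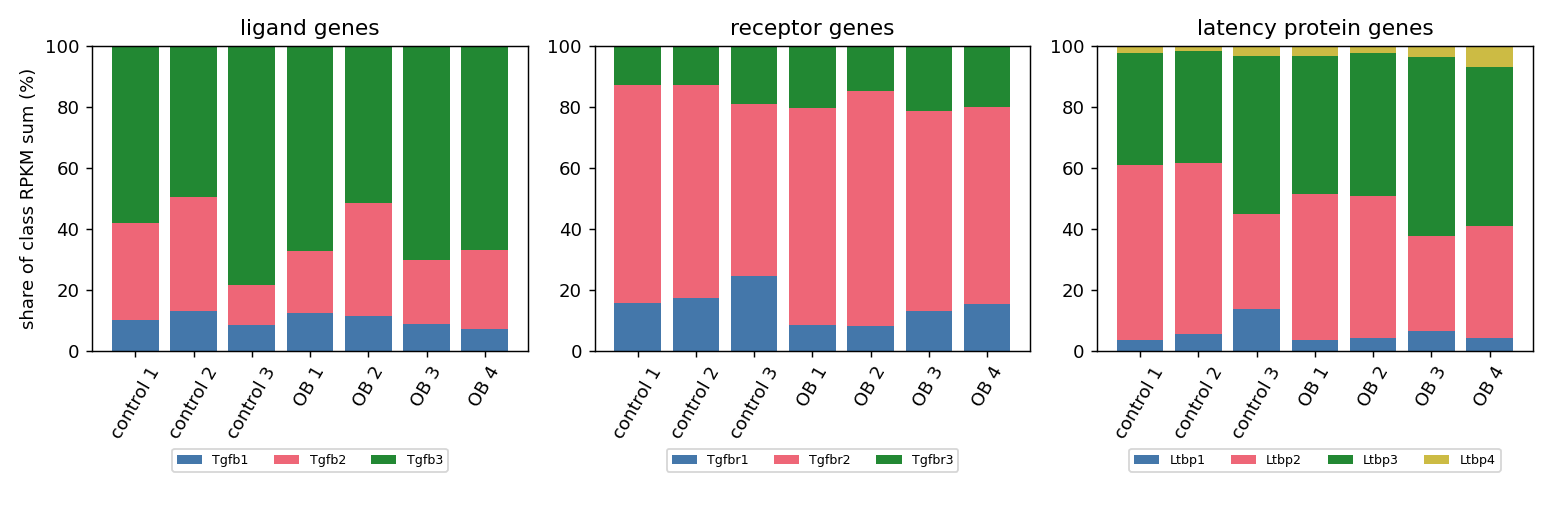
Share of each gene in the summed RPKM of its class in each library, as stacked bars that add to 100%, for ligand, receptor and latency protein genes. Tgfb3 and Tgfbr2 hold the largest share in every library, while Ltbp2 leads in control 1 and 2 and OB 1, Ltbp3 leads in control 3, OB 3 and OB 4, and the 2 are level in OB 2.

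The latency genes held both the highest and some of the lowest levels. Ltbp1, which encodes the binding protein first found in the large latent complex, stood at 77.3, 100.9 and 181.8 CPM in control 1, 2 and 3. It stood at 66.0, 59.0, 89.3 and 63.0 CPM in OB 1, 2, 3 and 4. OB 3 was above control 1, so the groups overlapped, and control 3 was highest. OB against control gave a log2 fold change of -0.79 ± 0.29 (SE, edgeR adjusted p = 0.132), with a 95% interval of -1.45 to -0.13. Without control 3 it was -0.37 (edgeR adjusted p = 0.276). Within label sets it was -0.23 in C1, -0.78 in C2 and -1.28 among libraries with no C number, in log2 CPM. With the label set as a block it was -0.81 ± 0.21 (SE, edgeR adjusted p = 0.0462), where 8.13% of all genes were called lower, and with the replicate number as a block -0.68 ± 0.17 (SE, edgeR adjusted p = 0.0718). The test of the difference between label sets gave -0.75 (edgeR interaction term, adjusted p = 0.170). Ltbp1 (ENSMUSG00000001870) lies on chromosome 17 of mm10 at 75005568 to 75392512, on the plus strand.

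Sequence near the start of transcription is shown for Tgfbr2 and Ltbp1, the genes that passed the test once the label set was a block. RefSeq promoter windows of 300 bases on GRCm38.p6 matched 8 of the 10 genes (12 windows), and those of Tgfb3 and Tgfbr3 were not matched. Capitals mark the Smad binding element CAGAC or its reverse complement GTCTG, searched on both strands. The windows are chr9:116175314-116175613 on the minus strand for Tgfbr2, and chr17:75005279-75005578 and chr17:75178531-75178830 on the plus strand for the upstream and downstream starts of Ltbp1. Reads over these 2 starts were summed in 1 count per gene.
Tgfbr2: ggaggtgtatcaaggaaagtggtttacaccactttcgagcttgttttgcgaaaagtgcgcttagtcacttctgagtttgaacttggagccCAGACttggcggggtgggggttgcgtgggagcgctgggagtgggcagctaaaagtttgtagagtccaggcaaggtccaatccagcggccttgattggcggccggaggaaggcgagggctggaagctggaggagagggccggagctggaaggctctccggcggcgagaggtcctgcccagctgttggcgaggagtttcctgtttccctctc
Ltbp1 upstream start: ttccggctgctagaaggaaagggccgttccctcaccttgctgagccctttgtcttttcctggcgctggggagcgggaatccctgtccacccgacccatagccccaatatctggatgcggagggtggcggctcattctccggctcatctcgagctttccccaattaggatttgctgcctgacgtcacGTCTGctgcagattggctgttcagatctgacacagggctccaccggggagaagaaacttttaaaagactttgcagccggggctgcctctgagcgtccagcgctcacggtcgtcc
Ltbp1 downstream start: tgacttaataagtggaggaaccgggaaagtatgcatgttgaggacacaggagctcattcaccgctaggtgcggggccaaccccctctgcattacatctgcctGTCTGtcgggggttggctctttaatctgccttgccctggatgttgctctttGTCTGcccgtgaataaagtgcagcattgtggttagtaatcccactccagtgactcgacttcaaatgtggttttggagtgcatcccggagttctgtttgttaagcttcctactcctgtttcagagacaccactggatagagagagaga
CAGAC occurred in 7 of the 12 windows, in 6 of the 8 genes, against 49.6% of all 32851 windows. The glucocorticoid receptor motif AGAACA (reverse complement TGTTCT) occurred in 0 of the 12 windows, against 19.0% of all. The Sp1 box GGGCGG (reverse complement CCGCCC) occurred in 6 of the 12 against 35.7%, with 6 copies in the window of Tgfb1 and 0 in those of Tgfbr2 and Ltbp1. The TATA core TATAAA (reverse complement TTTATA) occurred in 1 of the 12, that of Tgfb2, against 13.6%. Such a match is a description of the letters alone.

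Ltbp2, whose product takes part in elastic fibre assembly and does not bind latent TGF-β itself, differed widely among the controls. Its level was 932.5, 795.4 and 325.2 CPM in control 1, 2 and 3 against 678.4, 521.0, 330.6 and 441.9 CPM in OB 1, 2, 3 and 4. All 4 OB libraries lay between control 3 and control 2. The log2 fold change was -0.47 ± 0.37 (SE, edgeR adjusted p = 0.458), with a 95% interval of -1.32 to 0.37. It was -0.82 without control 3 and -0.20 without control 1. The differences within label sets were -0.46, -0.61 and 0.23 in log2 CPM for C1, C2 and no C number. Ltbp2 (ENSMUSG00000002020) lies on chromosome 12 at 84783212 to 84876532, on the minus strand, and shares 9.34% of its exon bases with D030025P21Rik on the opposite strand.

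Ltbp3, whose product binds latent TGF-β and aids its secretion, was the steadiest latency gene. It was measured at 379.5, 327.5 and 340.4 CPM in the controls, against 407.9, 330.2, 398.3 and 393.9 CPM in OB 1, 2, 3 and 4. The groups overlapped and the log2 fold change was 0.13 ± 0.12 (SE, edgeR adjusted p = 0.521), with a 95% interval of -0.14 to 0.40. Ltbp3 (ENSMUSG00000024940) lies on chromosome 19 at 5740904 to 5758532, on the plus strand.

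Ltbp4, a binding protein gene whose product also organises elastic fibres, stood at 30.7, 19.4 and 28.6 CPM in the controls. It stood at 37.7, 21.1, 30.8 and 66.1 CPM in OB 1, 2, 3 and 4. OB 4 was highest and OB 2 was within the control range. The log2 fold change was 0.57 ± 0.37 (SE, edgeR adjusted p = 0.374), with a 95% interval of -0.28 to 1.41. It was 0.19 without OB 4, 0.38 without control 2 and 0.18 with the replicate block. Ltbp4 (ENSMUSG00000040488) lies on chromosome 7 at 27305136 to 27337692, on the minus strand.

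In order of level per exon length, the controls ran from Ltbp2 (83.6 ± 38.9 RPKM, SD, n = 3) and Ltbp3 (67.3 ± 5.22 RPKM) through Tgfbr2 (34.2 RPKM, range 20.4 to 42.2) and Tgfb3 (18.2 ± 4.33 RPKM). Then followed Ltbp1, Tgfbr1, Tgfb2 and Tgfbr3 (11.5, 9.35, 8.03 and 7.22 RPKM), and last Ltbp4 and Tgfb1 (4.06 and 3.13 RPKM). Neighbours whose control ranges did not overlap were Ltbp3 with Tgfbr2 and Tgfbr3 with Ltbp4; all other neighbours overlapped. In OB, Ltbp3 led at 73.7 ± 6.82 RPKM (SD, n = 4), ahead of Ltbp2 at 60.2 ± 17.9 RPKM and Tgfbr2 at 57.0 ± 18.8 RPKM, which overlapped. Tgfbr3 held the eighth place in control and the fifth in OB, at 15.1 ± 3.29 RPKM, next to Tgfb3 at 15.8 ± 3.06 RPKM. Tgfb1 was last in both groups.

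**Figure D4:**
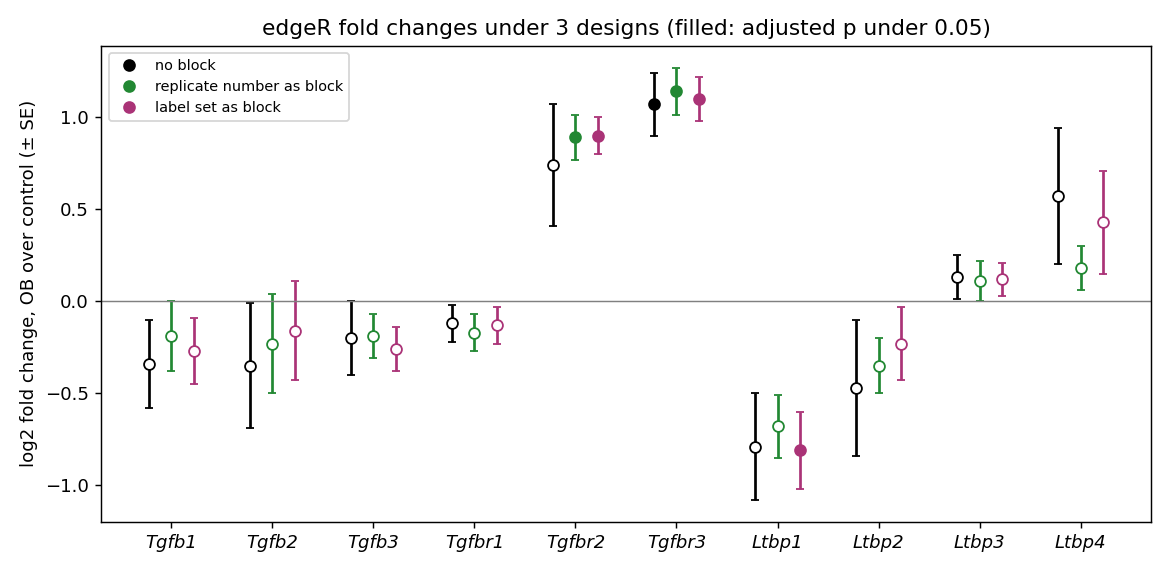
Log2 fold change of OB over control with its SE for the 10 genes by edgeR with no block, with the replicate number as a block and with the label set as a block. Filled points passed an adjusted p of 0.05, which Tgfbr3 did in all 3 designs, Tgfbr2 with either block and Ltbp1 with the label set as a block.

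Over the 7 libraries Rchy1 and Camk2d were among the genes whose log2 CPM was most like that of Tgfbr3, of 10344 genes searched (Pearson r = 0.99 each). Camk2d, a calcium-dependent kinase gene, averaged 71.1 CPM over the controls and 155 CPM over OB. Rchy1, a ubiquitin ligase gene, averaged 36.7 and 51.8 CPM. The libraries share groups and label sets, so this likeness is a description only.

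Other genes of the pathway were taken as 4 lists with 69 members, of which 65 were tested. By edgeR 1 was higher, 3 were lower and 61 did not pass, against 4.32% higher and 3.72% lower among all genes, with a median log2 fold change of -0.07. With the replicate block 3 were higher and 6 lower, against 5.38% and 3.38% of all genes. With the label set block the numbers were 6 and 9, against 9.28% and 8.13%. Of the genes that activate or anchor latent TGF-β, 0 of 16 tested were called in either direction. At an unadjusted p under 0.05, 2 were higher and 1 lower, with 12.8% and 12.4% of all genes. DESeq2 called 1 and 1 (6.9% and 6.03% of all genes), and limma-voom 2 and 1 (8.08% and 7%). The members with the highest CPM, a scale that is not per exon length, were Fn1 (fibronectin), with a control mean of 8967 ± 1357 CPM (SD, n = 3) and an OB mean of 5699 ± 1372 CPM (SD, n = 4), and Fbn1 (fibrillin-1), with means of 1039 ± 151 and 988 ± 54.5 CPM. For Fbn1 the edgeR adjusted p was 0.761 (log2 fold change -0.07), and 20.1% of its exon bases are shared with Gm9913 on the opposite strand. The log2 fold change of Fn1 was -0.65 (edgeR adjusted p = 0.0940), and -0.81 with the replicate block (edgeR adjusted p = 0.0367). Fn1 did not pass with the label set block (edgeR adjusted p = 0.0998) or among libraries with no C number (-0.31, edgeR adjusted p = 0.283).

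Mmp14, named after its values were seen, encodes a membrane protease that can release TGF-β from its latent complex. The CPM values were 633.6, 580.8 and 381.3 for control 1, 2 and 3, compared with 1139, 930.8, 829.8 and 748.3 for OB 1, 2, 3 and 4. The groups did not overlap, as for 25.5% of all genes tested, but the log2 fold change of 0.78 ± 0.21 (SE) had edgeR adjusted p = 0.0641. Mmp14 passed with the replicate block (edgeR adjusted p = 0.0185), the label set block (edgeR adjusted p = 0.00503), DESeq2 (adjusted p = 0.0123) and limma-voom (adjusted p = 0.0428). It did not pass without any 1 library (edgeR adjusted p = 0.0669 to 0.148). Furin, the protease gene that cuts the ligand precursors, was not called. Nrros and Plg had 0 counts in every library.

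Among accessory receptors and extracellular modulators, 0 of 11 tested were called by edgeR. At an unadjusted p under 0.05, 3 were higher and 2 lower, against 12.8% and 12.4% of all genes. The calls of both DESeq2 and limma-voom were 1 higher and 2 lower, against 6.9% and 6.03% and against 8.08% and 7%. Bgn (biglycan), a matrix proteoglycan gene, averaged 2831 ± 578 CPM over the controls (SD, n = 3) and 3926 ± 777 CPM over OB (SD, n = 4), with edgeR adjusted p = 0.188 (log2 fold change 0.47). Aspn (asporin), whose product binds TGF-β, was read at 692.4, 493.2 and 143.1 CPM in control 1, 2 and 3. Its OB libraries had 1169, 1088, 1204 and 1279 CPM. The Aspn groups did not overlap, and its log2 fold change was 1.42 (edgeR adjusted p = 0.0944), or 0.99 without control 3 (edgeR adjusted p = 0.0188). Without any other library Aspn did not pass (edgeR adjusted p = 0.0528 to 0.186). Within label sets the difference was 0.76 in C1, 1.14 in C2 and 3.12 among libraries with no C number, in log2 CPM.

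Dcn (decorin), another TGF-β binding proteoglycan gene, was also named after its values were seen. Its level was 87.8, 78.7 and 7.06 CPM in control 1, 2 and 3 against 16.7, 7.33, 3.89 and 3.68 CPM in OB 1, 2, 3 and 4. Control 3 lay among the OB libraries. The log2 fold change was -2.87 ± 0.83 (SE, edgeR adjusted p = 0.0746), -2.31 with the replicate block (edgeR adjusted p = 0.0470) and -3.40 without control 3 (edgeR adjusted p = 0.0189). Without any other library Dcn did not pass (edgeR adjusted p = 0.0915 to 0.173), nor with OB 3 and OB 4 summed (edgeR adjusted p = 0.162). Dcn did pass with the label set block (-2.23, edgeR adjusted p = 0.0235), by DESeq2 (adjusted p = 0.0248) and by limma-voom (adjusted p = 0.0141). Among libraries with no C number the log2 fold change was -0.91.

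Of the genes of Smad signalling and its feedback, 2 of 16 tested were called lower and 0 higher, and at an unadjusted p under 0.05 the numbers were 4 and 0. Over all genes 3.72% were called lower, and 12.4% were lower at the unadjusted threshold. The calls were 3 lower and 0 higher in both DESeq2 and limma-voom, against 6.03% and 7% lower among all genes. Every log2 fold change of the 16 was below 0 (median -0.28), as were 7786 of all 15441 genes. Over the alternatives 14 to 16 were below 0, with 14 in C1 and C2 libraries and 15 with upper-quartile scaling. Smad3, a receptor-activated Smad gene, was at 110.3, 104.7 and 92.4 CPM in control 1, 2 and 3, against 60.8, 52.3, 58.3 and 62.0 CPM in OB 1, 2, 3 and 4. Every OB library was below every control. Mean Smad3 was 103 ± 9.16 CPM in control (SD, n = 3) and 58.4 ± 4.30 CPM in OB (SD, n = 4), a fall with a log2 fold change of -0.81 ± 0.10 (SE, edgeR adjusted p = 0.00755), and the call held without each library in turn. In bulk RNA, fewer cells with a transcript and less transcript per cell cannot be told apart.

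Its partners Smad2, the other receptor-activated Smad of the pathway, and Smad4, the common Smad, did not pass the test. Smad2 had control and OB means of 51.6 and 48.7 CPM with edgeR adjusted p = 0.674 (log2 fold change -0.08). Smad4 had means of 91.8 and 87.5 CPM with edgeR adjusted p = 0.668 (log2 fold change -0.07). Tgif1, a Smad co-repressor gene, fell from 58.1 ± 8.19 CPM to 40.2 ± 2.76 CPM, a log2 fold change of -0.53 ± 0.12 (SE, edgeR adjusted p = 0.0362). Its call ended without any 1 of the 7 libraries (edgeR adjusted p = 0.0524 to 0.112) and with OB 3 and OB 4 summed (0.0757). The feedback gene Smad7 was at 29.0, 25.4 and 37.6 CPM in the controls, against 27.3, 27.9, 14.7 and 14.0 CPM in OB 1, 2, 3 and 4, with log2 fold changes of -0.08, 0.14 and -1.38 within C1, C2 and no C number.

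Of 22 genes known to be induced by TGF-β in other settings, all tested, 1 was higher and 1 lower, against 4.32% and 3.72% of all genes. With DESeq2 the numbers were 2 and 3, against 6.9% and 6.03% of all genes, and with limma-voom 2 and 4, against 8.08% and 7%. Klf10, the TGF-β inducible early gene, was at 33.5, 32.5 and 40.2 CPM in control 1, 2 and 3, against 14.9, 9.59, 17.6 and 15.3 CPM in OB 1, 2, 3 and 4. No OB library reached the lowest control. Mean Klf10 was 35.4 ± 4.18 CPM in control (SD, n = 3) and 14.4 ± 3.38 CPM in OB (SD, n = 4), a fall with a log2 fold change of -1.31 ± 0.21 (SE, edgeR adjusted p = 0.0132), and the call held without each library in turn. Lox, the lysyl oxidase gene that crosslinks collagen, rose from 2319 ± 345 CPM to 4487 ± 1171 CPM, a log2 fold change of 0.95 ± 0.23 (SE, edgeR adjusted p = 0.0435). The call of Lox ended with the replicate block (edgeR adjusted p = 0.0915), without any library but OB 2 (0.0599 to 0.132) and with upper-quartile scaling (0.0526). It also ended with OB 3 and OB 4 summed (edgeR adjusted p = 0.101) and in C1 and C2 libraries (0.51, edgeR adjusted p = 0.137). Within label sets the difference was 0.57 in C1, 0.43 in C2 and 1.44 among libraries with no C number, in log2 CPM.

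Ccn2, a matricellular target gene named after its values were seen, was at 18.2 and 23.8 CPM in control 1 and 2, at 122.5 CPM in control 3 and at 129.4, 131.2, 88.8 and 88.3 CPM in OB 1, 2, 3 and 4. OB minus control was 2.82 and 2.46 in log2 CPM within C1 and C2 (2.64 in a fit of both, edgeR adjusted p = 0.00217) and -0.47 among libraries with no C number. Over all 7 libraries the log2 fold change was 1.00 ± 0.63 (SE, edgeR adjusted p = 0.357), and without control 3 it was 2.38 (edgeR adjusted p = 0.00439). Other methods on all 7 libraries differed, with 0.985 by DESeq2 (adjusted p = 0.284) and 2.17 by limma-voom, which weighted libraries by quality (adjusted p = 0.00432). Tagln, a smooth muscle target gene, was read at 0.407 to 1.02 CPM, but 67.9% of its exon bases are shared with other genes, mostly Gm48529 on the opposite strand. Ccn2 shares 23.2% of its exon bases with Gm15270, also on the opposite strand. In either case fragments over both genes were not counted.

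**Figure D5:**
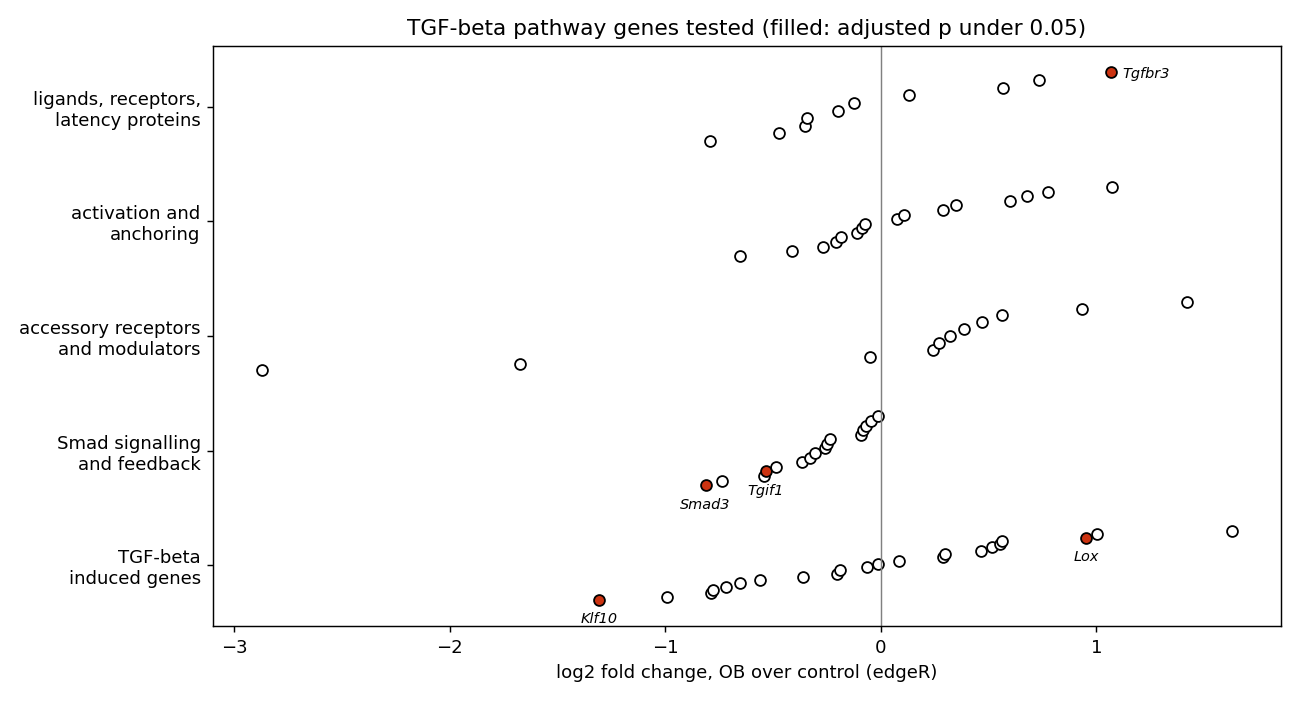
Log2 fold change of OB over control by edgeR for each tested gene, in rows for the 10 ligand, receptor and latency genes and for 4 lists of other pathway genes. Filled points passed an adjusted p of 0.05; all 16 Smad signalling genes lie below 0 (14 to 16 over the alternatives, 15 with upper-quartile scaling), and the other rows hold values on both sides.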

How the data were processed

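Messenger RNA of 7 libraries was sequenced from Trizol-extracted RNA with a TruSeq v2 kit, per the labels' protocols. Trimmomatic, HISAT2, featureCounts and mm10 are named in the submitters' processing notes. Per the file headers, the deposited values are raw fragment counts per gene from featureCounts 1.6.4 over exons of Ensembl 94, without strand, multi-mapping or overlap options. The exon length in bases, also deposited by the authors and per the file headers, was used for RPKM. The table numbers its columns, and the order of inputs in its header's counting command gave each column its sample, with no second source for that order. A symbol was present for 54409 of 54532 features.

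Counts were fitted in R 4.3.3 with edgeR 4.0.16 (filterByExpr, TMM factors, quasi-likelihood test, Benjamini-Hochberg over 15441 genes, threshold 0.05, prior count of 2 for log2 CPM). SEs were obtained as the fold change on the log2 scale over the square root of F, and intervals are at 95%. Alternatives used DESeq2 1.42.0, limma 3.58.1, other scalings, no filter, blocks, label sets alone, OB 3 and OB 4 summed and each library left out. The code was tested on simulated data. The closest libraries of 1 group, OB 3 and OB 4, differed at 13.56 chi-square units per degree of freedom, above sampling noise. They were counted as 2 replicates, though this value cannot tell 2 cultures from 2 libraries of 1 culture.

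Correlations between libraries were taken on log2 CPM after the mean of each gene in its own group was subtracted. The replicate number was used as a block because these correlations were over 0.1 for same-numbered libraries (r = 0.17, 0.52 and 0.40 for numbers 1, 2 and 3). However, on the same scale OB 1 correlated more with control 2 (0.21) than with control 1, and control 3 also correlated with OB 4 (0.27). These values do not establish a pairing by number, so the replicate block rests on an assumption. OB 4 is alone in its block. The 10 genes and the lists were chosen with earlier results of these data known. Named were all 10 genes, up to 6 called members of each list in order of p, the 2 most abundant members where fewer than 2 were called, and the 3 genes most correlated with each called gene of the 10, among genes of mean log2 CPM at least 2 and without predicted or clone names, of which 1 is not reported here. Mmp14, Furin, Dcn, Smad2, Smad4, Smad7, Ccn2 and Tagln fall outside this rule and were chosen after their values were seen. Protein sequences were not used here.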

Additional observations from a re-analysis of the deposited data

Results flagged for a closer look

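Within the OB group, OB 4 lay apart from the other 3 libraries for 2 of the 18 genes checked. Tgfbr1 stood at 62.1 CPM in OB 4, against 53.9 to 54.3 CPM in OB 1, 2 and 3, where its gap was 0.951 of the range of the group and exceeded Dixon's 95% critical value for 4 samples. Tgif1 stood at 44.3 CPM in OB 4, against 38.6 to 39.2 CPM in the others, with a gap of 0.906 of the range. Chance alone marks about 1 group in 20, and the control group of 3 was not checked.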

How the results depend on the processing

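The direction of Tgfbr3 held in all 18 alternatives and its call in 17, with adjusted p of 6.72e-11 to 0.0534. Tgfbr2 was positive in all 18 (0.37 to 0.99). With no block it did not pass in any fit of all 7 libraries, or without any 1 library (edgeR adjusted p = 0.193 to 0.374). It passed in 4 fits that compare replicated groups. These were the replicate block, the label set block in edgeR and in DESeq2, and C1 and C2 libraries alone. Replicate numbers 1 to 3 follow the label sets and these fits share libraries, so Tgfbr2 was not put to 4 separate checks. It also passed in libraries with no C number, where the spread comes from OB 3 and OB 4 alone, so that fit is no check of the call. Tgfb1, Tgfbr1, Ltbp1, Ltbp3 and Ltbp4 kept their sign in all 18, while Tgfb3 was 0.02 by limma-voom and Ltbp2 0.23 in libraries with no C number. Within C1, C2 and no C number, however, Tgfb1 differed by 0.069, -0.551 and -0.325 in log2 CPM, and Tgfbr1 by -0.165, -0.263 and 0.008. Smad3 and Klf10 kept sign and call in all 18. Tgfb2 turned to 0.60 and Ccn2 to -0.48 in libraries with no C number alone, which hold 1 control taken to vary as much as the OB libraries. The cause was not tested.

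Of the 10 genes, 2 were higher with the replicate block and 2 with the label set block (5.38% and 9.28% of all genes). In DESeq2 with the label set block 2 were higher, and 2 in C1 and C2 libraries (10.8% and 6.27%). The number lower was 1 with the label set block and 1 in DESeq2 with that block, against 8.13% and 9.53% of all genes. Without 1 library at a time the numbers were 0 to 1 higher and 0 lower, against 1.2% to 3.52% and 0.662% to 4.43% of all genes. The 0 higher came without control 2. The replicate block changed no other call of the 10.

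Of the 65 other pathway genes tested, 1 was higher and 3 lower. The numbers were 4 and 9 by DESeq2 (6.9% and 6.03% of all genes) and 5 and 10 by limma-voom (8.08% and 7%). With the replicate block they were 3 and 6 (5.38% and 3.38%), and with the label set block 6 and 9 (9.28% and 8.13%). They were 7 and 13 in DESeq2 with the label set block (10.8% and 9.53%) and 8 and 8 in C1 and C2 libraries (6.27% and 3.41%). In libraries with no C number they were 15 and 19, where 18.9% of all genes were called higher and 21.2% lower. That fit holds 1 control taken to vary as much as the OB libraries, so it is no check of the calls. Upper-quartile scaling gave 0 higher (4.28% of all genes), OB 3 and OB 4 summed gave 0 higher (2.25%), and no filter gave 7 lower (2.29%). Leaving out 1 library gave 0 to 2 higher and 2 to 5 lower, against 1.2% to 3.52% and 0.662% to 4.43% of all genes.

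Over all genes the main counts were 667 higher and 574 lower. They became 1292 and 1129 by DESeq2, 1247 and 1081 by limma-voom, 1433 and 1256 with the label set block, 1900 and 1679 in DESeq2 with that block, 3052 and 3413 in libraries with no C number and 367 and 216 with OB 3 and OB 4 summed. C1 and C2 libraries gave 1030 higher. Leaving out 1 library gave 190 to 575 higher and 104 to 703 lower. Shares within a class are the same from TPM as from RPKM by construction. Scaling moved the median of all genes by at most 0.02 in log2.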
